A study of Homo sapiens with 9 samples.

Results

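The mitochondrially encoded genes were the 37 genes on chromosome M, whose symbols start with MT-, among the 60660 gene identifiers of the count table. They were taken by chromosome and symbol alone, and no measured value entered the rule, although earlier results of these data were known. They comprised 13 coding genes, 2 rRNA genes and 22 tRNA genes. The 9 libraries were made from OVCAR3, an established ovarian carcinoma cell line, with 3 libraries in each of 3 groups. These were Control, overexpression of CTCFL (CTCFL-OE, here OE) and knockdown of CTCFL (CTCFL-KD, here KD). CTCFL, or BORIS, is a germline paralog of the insulator protein CTCF. In OE the cells received 2 µg of a plasmid with the CTCFL open reading frame in a transient transfection and were harvested 48 h later. In KD the gene was silenced with siRNA, and the RNA came from knockdown experiments of an earlier study. The sample labels give no treatment for Control, whereas the methods of the study name a LacZ plasmid as the negative control. No Control library came with the knockdown experiments, so the effect of the siRNA and the difference between the experiments cannot be told apart in any comparison with KD. Each library pooled 3 technical replicates, all came from 1 cell line, and both comparisons with Control rest on the same 3 Control libraries.

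The mitochondrial genome is a small circular DNA present in many copies per cell. Both of its strands are transcribed by the polymerase POLRMT into long precursor RNAs that hold many genes, and these are cut at the tRNAs that lie between most of the coding and rRNA genes. Most of the mature mRNAs carry short poly(A) tails, so a library made from polyadenylated RNA captures these. The coding genes specify core subunits of the respiratory chain and of the ATP synthase, and the rRNA and tRNA genes serve their translation inside the organelle. In RNA of a whole culture, more mitochondrial genomes per cell and more RNA per genome cannot be told apart.

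The annotation placed 28 of the genes on the plus strand of chromosome M, which the heavy-strand promoter transcribes, and 9 on the minus strand. The minus-strand genes were MT-ND6 and 8 tRNA genes. The rRNA genes and their neighbours abut without a base in between. MT-RNR1 (chrM:648-1601), MT-TV (chrM:1602-1670), MT-RNR2 (chrM:1671-3229) and MT-TL1 (chrM:3230-3304) follow each other on the plus strand of GRCh38. These 3 junctions are shown because both rRNA genes rose in KD while MT-TV and MT-TL1 did not. MT-TF, which ends at the base before MT-RNR1, did not pass the filter on low counts. Each line gives 15 bases of the first gene in lower case and 15 bases of the second gene in capitals.
MT-RNR1 to MT-TV: tgcacttggacgaacCAGAGTGTAGCTTAA
MT-TV to MT-RNR2: acttgaccgctctgaGCTAAACCTAGCCCC
MT-RNR2 to MT-TL1: ccaagaacagggtttGTTAAGATGGCAGAG

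Of the 22 tRNA genes, 5 carried a difference that passed a test below. Their sequences follow 5′ to 3′ in the direction of the tRNA, with the anticodon in capitals. MT-TL1 is the tRNA for leucine that reads UUR codons, and MT-TV is the tRNA for valine, both on the plus strand. The genes on the minus strand are MT-TS1 (chrM:7446-7514), a serine tRNA between MT-CO1 and MT-CO2, MT-TC (chrM:5761-5826), the cysteine tRNA, and MT-TP (chrM:15956-16023), the proline tRNA beside the control region.
MT-TL1: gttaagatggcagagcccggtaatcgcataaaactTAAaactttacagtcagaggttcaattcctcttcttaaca
MT-TV: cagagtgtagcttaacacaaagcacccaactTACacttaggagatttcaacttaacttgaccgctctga
MT-TS1: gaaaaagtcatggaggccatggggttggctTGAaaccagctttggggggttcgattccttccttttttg
MT-TC: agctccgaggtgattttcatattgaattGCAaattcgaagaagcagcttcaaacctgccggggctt
MT-TP: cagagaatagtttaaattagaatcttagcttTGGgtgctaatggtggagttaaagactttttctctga

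A few genes share bases, so a read there belongs to both. MT-ATP8 (chrM:8366-8572) and MT-ATP6 (chrM:8527-9207), both subunits of the ATP synthase, share 46 bases. The shared stretch chrM:8527-8572 starts with the start codon of MT-ATP6 and ends with the stop codon of MT-ATP8, which are set in capitals.
MT-ATP8 and MT-ATP6: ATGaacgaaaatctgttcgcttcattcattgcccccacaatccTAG
MT-ND4L and MT-ND4 share 7 bases, MT-TI and MT-TQ 3, and MT-ATP6 with MT-CO3 and MT-TC with MT-TY 1 each. The rule by which the authors assigned reads of 2 genes, the strand setting and the handling of reads with several alignments are not given in the sources used here. Counts of these pairs are therefore uncertain, as are those of the minus-strand genes, whose reads cannot be told apart from reads of the opposite precursor if strand was not used.

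Total counts per library ranged from 14332622 to 24490080, and no library repeated another. CTCFL itself had 6, 9 and 10 counts in Control, 36, 34 and 72 in OE, and 0, 1 and 0 in KD, where a count of 0 allows up to 3 counts. CTCF had 1545 to 2192 counts in Control, 1054 to 1708 in OE and 601 to 1147 in KD. All 12 markers of ovarian carcinoma epithelium were detected, with summed levels of 5517 to 5623 CPM (counts per 1000000 counts, after scaling of the libraries) in Control, 5132 to 5265 CPM in OE and 9913 to 16450 CPM in KD. Of 10 leukocyte markers, MS4A1, CD3E, CD3D, CD68 and NKG7 had at most 3 counts in every library, and the sum over the list was at most 4.69 CPM. The 10 fibroblast markers summed to 25.0 to 44.2 CPM and the 8 endothelial markers to 19.7 to 32.3 CPM. The nuclear-retained RNAs MALAT1, NEAT1 and KCNQ1OT1 together came to 739 to 1131 CPM in Control, 1014 to 2271 in OE and 452 to 554 in KD. The 68 replication-dependent histone genes, whose mRNAs lack poly(A) tails, summed to 264 to 274 CPM in Control, 247 to 270 in OE and 648 to 1003 in KD, and the 6 small RNAs without tails, of which 1 had over 3 counts in any library, to at most 17.8 CPM in Control, 16.2 in OE and 64.1 in KD. The library KD replicate 1 stood apart from the other 8. Its scaling factor was 0.775, against 0.945 to 1.09 in the others, and cytosolic ribosomal protein genes held 13.6% of its scaled counts, against 4.25% to 5.95% in the others. Short genes were high in it, with a Spearman correlation of -0.542 across 10280 genes between gene length and the log2 ratio to the other KD libraries. The next strongest negative value was -0.356, in Control replicate 1 against the other Control libraries. For the mitochondrial genes that rose in KD and for several nuclear genes, values without this library are also given. The part of these marker and library differences in the results was otherwise not tested.

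Mitochondrially encoded genes took up a larger share of the counts in both treated groups than in Control. The 37 genes held 6.52%, 6.31% and 6.16% of all counts in the Control libraries, a mean of 6.33% ± 0.181 (SD, n = 3). In OE they held 7.40%, 12.4% and 14.9%, a mean of 11.6% ± 3.81 (SD, n = 3). In KD they held 11.8%, 9.64% and 7.80%, a mean of 9.73% ± 1.98 (SD, n = 3). Every treated library lay above every Control library, while the treated groups overlapped and spread far more widely than Control. OE replicate 1 was close to Control, and the other OE libraries were the highest of all 9. The log2 difference of the share was 0.81 for OE against Control, 0.60 for KD against Control and -0.21 for KD against OE. A two-sided exact permutation test of 3 libraries against 3 gave p = 0.1, 0.1 and 0.6, where 0.1 is the smallest p this design allows. With Benjamini-Hochberg adjustment over the 15 single-value tests these were 0.15, 0.15 and 0.643 in the same exact test. At this depth the counting error was small beside the spread of the libraries, since the 95% Wilson interval of the share ran from 6.51% to 6.53% in Control replicate 1 and from 14.88% to 14.91% in OE replicate 3. These intervals cover counting error only, because the reads carry no molecular identifiers.

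**Figure D1:**
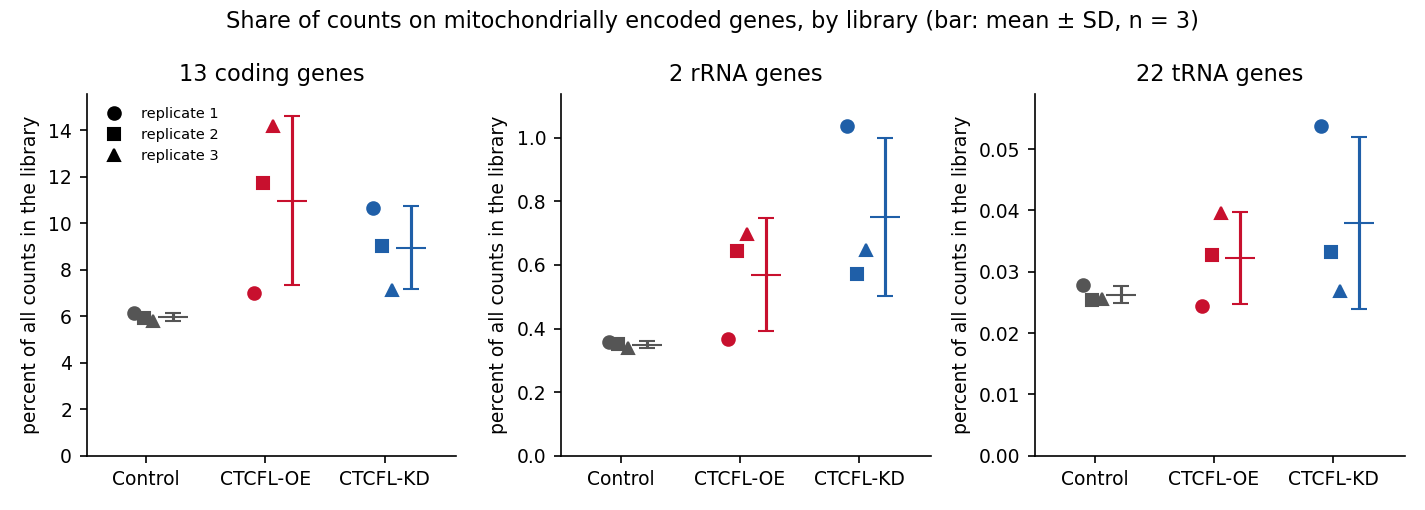
Percent of all counts in each library (y axis) on the 13 coding genes, the 2 rRNA genes and the 22 tRNA genes, for the 3 libraries of each group (points, shaped by replicate) with the mean ± SD beside them. The 3 Control libraries sit together in each panel, and all treated libraries lie above them for the coding and the rRNA genes, while OE replicate 1 lies below Control for the tRNA genes at 0.0245%.

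The coding genes made up most of this share and the tRNA genes almost none of it. Coding genes held 94.1% of the mitochondrial counts in Control, 94.8% in OE and 92.0% in KD, with SDs of 0.0516, 0.260 and 1.59 (n = 3 each). The rRNA genes held 5.52% ± 0.062, 4.95% ± 0.256 and 7.67% ± 1.54 of these counts (SD, n = 3). The tRNA genes held 0.415% ± 0.0123, 0.287% ± 0.0380 and 0.382% ± 0.0646 (SD, n = 3). Counts of a tRNA gene do not separate the mature tRNA from precursors that still contain it.

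Counts per length differed widely among the genes although most of them derive from 1 precursor. How evenly the mRNA kit captured rRNA, tRNA and coding transcripts was not measured, so the order is one of counts. In Control, expressed as CPM per kilobase of gene, MT-CO3, a subunit of cytochrome c oxidase (complex IV), was the highest at 8589 ± 318 (SD, n = 3). MT-ATP6, MT-ND4, MT-CO1 and MT-ND4L followed at 7589, 7445, 7284 and 7037 per kilobase, and each of these overlapped the next across the Control libraries. MT-CO2 at 6564 and MT-ATP8 at 5243 lay apart from the genes above them, and MT-ATP8 overlapped MT-ND2 at 4964, which overlapped MT-ND1 at 4628. MT-CYB at 2416 and MT-ND3 at 2267 per kilobase overlapped each other, and MT-RNR2 at 1935, MT-ND5 at 1224, MT-ND6 at 898 and MT-RNR1 at 337 were each separate from the gene before. MT-CO3 was also first in OE at 17260 ± 5990 and in KD at 19510 ± 8380 per kilobase (SD, n = 3). This order depended on reads assigned to nuclear copies, which are described further on. With the copies added to their parents, an alternative chosen after the data were seen, MT-ATP6 was first in Control at 9599, before MT-CO1 at 8846 and MT-CO3 at 8807 per kilobase. MT-ATP6 was then first in OE at 18980, with MT-CO3 at 17720, and MT-CO3 remained first in KD at 20040, with MT-ATP6 at 17610. In both treated groups most neighbours in the order overlapped, since the libraries of each group were far apart.

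In OE, no mitochondrial gene passed the test against Control. Of the 37 genes, 34 passed the filter on low counts, and MT-TF, MT-TW and MT-TD did not, with at most 17 counts in any library. The 13 coding genes had log2 fold changes between 0.21 and 1.19, all above 0, with a median of 0.93 against -0.01 over all 17794 genes tested. The lowest adjusted p, that of MT-CO1, was 0.158 (edgeR quasi-likelihood test, Benjamini-Hochberg adjustment), against a threshold of 0.1, and 11 of the 34 genes had an unadjusted p under 0.05, as did 17.7% of all genes tested. Of all genes tested, 3.15% passed in OE. All 3 OE libraries lay above all 3 Control libraries for 12 of the 34 genes, 10 of them coding, where 16.3% of all genes tested did so. The count of 0 was not kept under several alternatives. Without KD replicate 1, which is in neither group of this comparison, 15 genes passed, 14 higher and 1 lower, beside 27.4% of all genes. With only the OE and Control libraries in the fit 12 passed, all higher, beside 20.2% of all genes, and with DESeq2 8 passed, all higher, beside 7.62% of all genes. Without OE replicate 1, the library nearest to Control, 9 passed, beside 15.1% of all genes, and with no filter on low counts 13 passed, all higher, beside 4.01% of the larger number of genes then tested.

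Among the cytochrome c oxidase genes, MT-CO1 had 11510, 11260 and 10920 CPM in Control and 13350, 23860 and 26770 CPM in OE. MT-CO2 had 4696, 4404 and 4369 CPM in Control and 5712, 11050 and 13890 CPM in OE. MT-CO3 had 6978, 6480 and 6745 CPM in Control and 8628, 13980 and 17980 CPM in OE. The groups did not overlap for these 3 genes, and replicate 1 was the lowest OE library for each. Their log2 fold changes were 0.93 ± 0.30, 1.19 ± 0.41 and 1.01 ± 0.36 (SE), with adjusted p = 0.158, 0.175 and 0.184 by the edgeR quasi-likelihood test. Without KD replicate 1 the adjusted p values of the same edgeR test were 0.0379, 0.0266 and 0.0302.

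Of the NADH dehydrogenase (complex I) genes, MT-ND2, MT-ND3, MT-ND4, MT-ND4L and MT-ND6 were above Control in every OE library, and MT-ND1 and MT-ND5 overlapped Control. MT-ND4 had 10240, 10390 and 10150 CPM in Control and 11320, 19410 and 27700 CPM in OE, with a log2 fold change of 0.92 ± 0.34 (SE). MT-ND5, the last coding gene before MT-ND6 on the genome, had 2107, 2502 and 2043 CPM in Control and 2060, 2352 and 3296 CPM in OE, and its log2 fold change of 0.21 ± 0.25 (SE) was the smallest of the 13. MT-ND6, the only coding gene on the minus strand, had a log2 fold change of 0.40 ± 0.35 (SE). MT-CYB, the cytochrome b of complex III, had 2912, 2649 and 2711 CPM in Control and 2870, 6263 and 8346 CPM in OE. OE replicate 1 lay inside the Control range for this gene, and the log2 fold change was 1.08 ± 0.40 (SE). For the ATP synthase genes MT-ATP6 and MT-ATP8 the log2 fold changes were 0.97 ± 0.39 and 0.90 ± 0.32 (SE), with all OE libraries above Control.

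**Figure D2:**
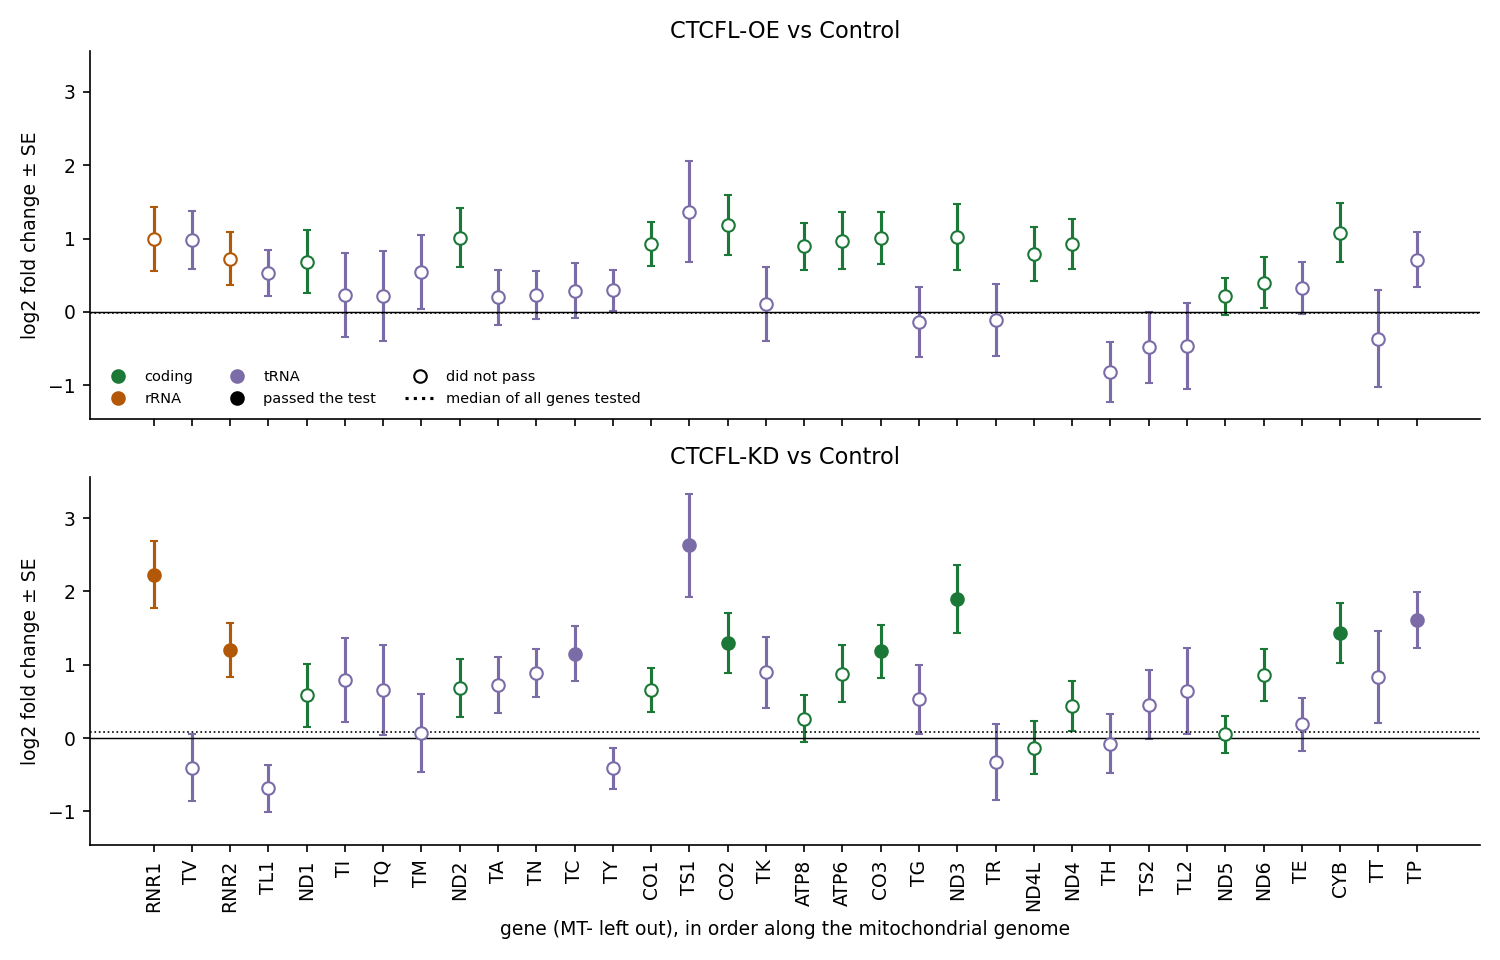
Log2 fold change against Control with its SE (y axis) for the 34 tested genes in order along the mitochondrial genome (x axis), for OE above and KD below, coloured by gene class. Filled points passed the test, which 0 genes did in OE and 9 in KD; the dotted line is the median of all genes tested, -0.01 and 0.08.

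In KD, 9 mitochondrial genes rose against Control and none fell. They were both rRNA genes, the coding genes MT-CO2, MT-CO3, MT-ND3 and MT-CYB, and the tRNA genes MT-TC, MT-TS1 and MT-TP. The 9 were among 34 tested, while 21.4% of all genes tested rose and 16.8% fell in this comparison at the threshold of 0.05. All 9 had a log2 fold change above 1 and so met the definition of a DEG of the study, as did 15.3% of all genes upward. All 3 KD libraries lay above all 3 Control libraries for 14 of the 34 genes, where 28.7% of all genes tested did so, and below them for MT-TL1 only, where 27.6% did so. MT-TL1 passed as lower under 4 of the alternatives, as given with its values. The median log2 fold change was 0.69 over the 13 coding genes, 1.72 over the 2 rRNA genes and 0.65 over the 19 tested tRNA genes, against 0.08 over all genes tested. With KD replicate 1 left out these medians were 0.43, 1.14 and -0.28, against 0.01 over all genes, so the direction over the tRNA genes turned. Without KD replicate 1, 7 genes passed, all among the 9, beside 49.9% of all genes, and 5 of the 7 kept a log2 fold change above 1. MT-RNR2 and MT-CO3 passed but were below that bound. MT-CO2 and MT-TC then did not pass, with adjusted p = 0.0627 and 0.0554 by the edgeR test. Leaving out any 1 Control library reduced the 9 to 4, 3 and 4 genes without replicates 1, 2 and 3. The share of all genes called fell from 38.2% to 26.8%, 26.7% and 25.8% in the same fits.

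MT-ND3, a small complex I subunit, had the largest change of the coding genes. It had 854, 710 and 790 CPM in Control and 5158, 2023 and 1566 CPM in KD. Every KD library was above Control and replicate 1 was far above the others. The log2 fold change was 1.89 ± 0.46 (SE) with adjusted p = 0.00827 by the edgeR quasi-likelihood test, and it was 1.20 ± 0.31 (SE) without KD replicate 1. MT-CYB had 10990, 6444 and 4880 CPM in KD, all above the Control values given earlier, and a log2 fold change of 1.43 ± 0.40 (SE) with adjusted p = 0.0172 by the same edgeR test. Without replicate 1 it was 1.04 ± 0.35 (SE). MT-CYB did not pass without Control replicate 1, 2 or 3 (edgeR adjusted p = 0.0539, 0.0642 and 0.0623).

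Of the cytochrome c oxidase genes, MT-CO2 and MT-CO3 rose in KD and MT-CO1 did not pass. MT-CO2 had 17790, 8611 and 6627 CPM in KD, and MT-CO3 had 22710, 12990 and 10190 CPM, all above Control. Their log2 fold changes were 1.29 ± 0.41 and 1.18 ± 0.36 (SE), with adjusted p = 0.0296 and 0.0240 by the edgeR quasi-likelihood test. They were 0.77 ± 0.31 and 0.79 ± 0.28 (SE) without KD replicate 1. Neither gene passed without Control replicate 1, 2 or 3. The edgeR adjusted p values were then 0.0816, 0.0928 and 0.0944 for MT-CO2 and 0.0746, 0.0867 and 0.0816 for MT-CO3. MT-CO1 had 20490, 17740 and 14970 CPM in KD, also above Control in every library, and its log2 fold change of 0.66 ± 0.30 (SE) had adjusted p = 0.105 by that edgeR test. It passed with only the 2 groups in the fit, without OE replicate 1 and with DESeq2 (adjusted p = 0.0476, 0.0394 and 0.0495).

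The remaining coding genes did not pass in KD. MT-ATP6, MT-ND6 and MT-ND2 had log2 fold changes of 0.88, 0.86 and 0.69, MT-ND1 and MT-ND4 of 0.58 and 0.44, and MT-ATP8, MT-ND5 and MT-ND4L of 0.26, 0.05 and -0.13. Their SEs lay between 0.25 and 0.43, and their adjusted p values between 0.0738 and 0.891 by the edgeR quasi-likelihood test. With KD replicate 1 left out, MT-ATP6, MT-ND6 and MT-ND2 were at 0.43, 0.32 and 0.32, MT-ND1 and MT-ND4 at -0.03 and 0.25, and MT-ATP8, MT-ND5 and MT-ND4L at 0.44, 0.16 and 0.17, so that MT-ND1 and MT-ND4L turned direction. MT-ATP6 and MT-ND6 passed without the low-count filter (edgeR adjusted p = 0.0179 and 0.0121), and MT-ND6 also without KD replicate 3 (0.0192). MT-ND4L had 2150, 2060 and 2059 CPM in Control and 1033, 2569 and 2116 CPM in KD, so replicate 1 was the lowest library and replicate 2 above Control. MT-ATP8 had 1112, 1067 and 1077 CPM in Control and 972, 1703 and 1235 CPM in KD, with replicate 1 again the lowest. In that library the coding genes ran from a log2 ratio to the Control mean of -1.02 for MT-ND4L to 2.72 for MT-ND3, a wider range than the 0.19 to 1.37 of replicate 2 and the -0.29 to 0.997 of replicate 3.

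**Figure D3:**
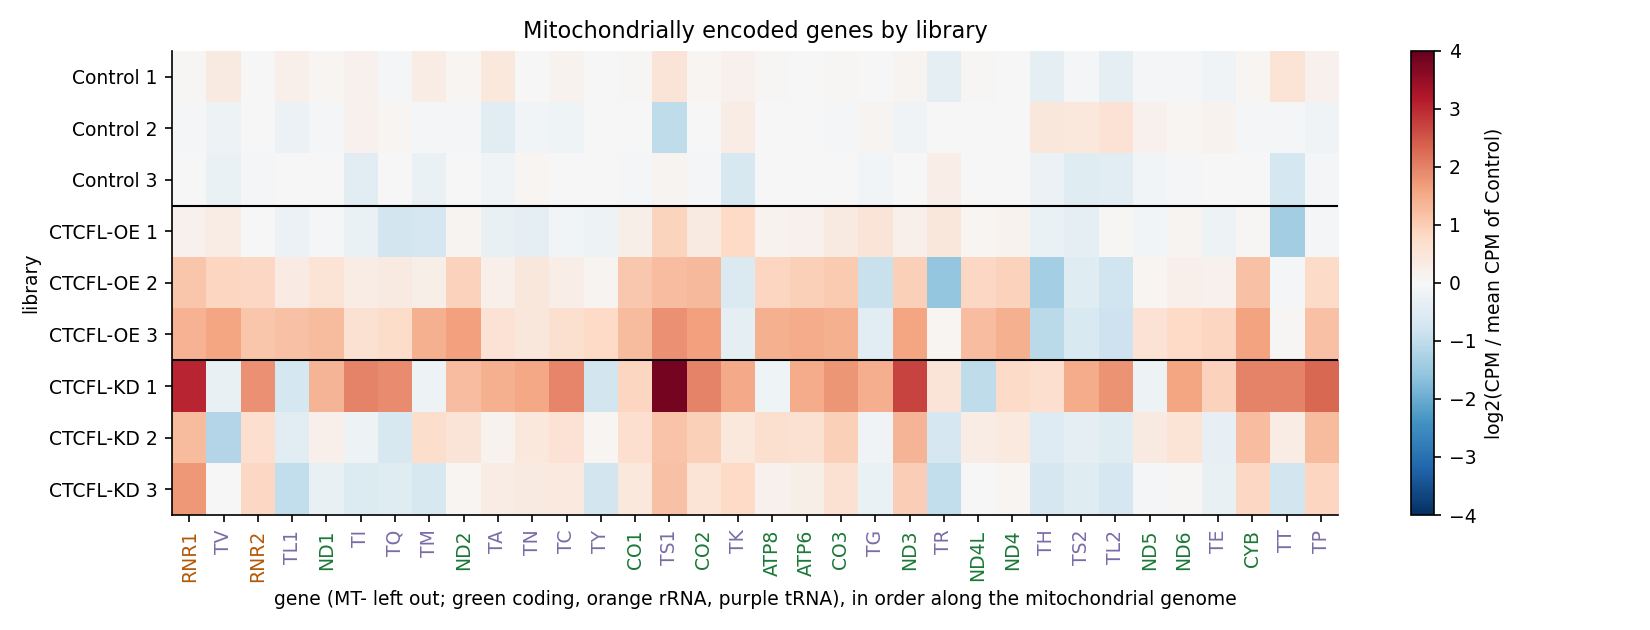
Log2 ratio of the CPM of each tested gene to its mean in Control (colour, from -4 to 4), with genes along the mitochondrial genome (x axis) and the 9 libraries as rows (y axis). OE replicates 2 and 3 are high across the coding genes, with median log2 ratios of 0.92 and 1.42, while replicate 1 is near Control at 0.13; KD replicate 1 is uneven, with MT-ND4L at -1.02 and MT-ND3 at 2.72.

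Within the coding counts, complex I held a smaller part in every OE and KD library than in Control, and complexes III and IV a larger part in every KD library. The 7 complex I genes together held 44.5%, 44.8% and 44.7% of the coding counts in Control, 41.7%, 39.4% and 43.8% in OE, and 36.5%, 38.0% and 37.4% in KD. The 3 complex IV genes held 39.7%, 39.3% and 39.4% in Control, 42.9%, 44.1% and 39.1% in OE, and 44.2%, 44.1% and 45.2% in KD. MT-CYB, for complex III, held 4.99%, 4.70% and 4.85% in Control, 4.45%, 5.65% and 5.56% in OE, and 7.97%, 7.22% and 6.95% in KD. The KD libraries were below all OE libraries for complex I and above all others for complexes III and IV, except that OE replicate 2 reached them for complex IV, and KD replicate 1 was close to the other KD libraries. The 2 ATP synthase genes held between 10.4% and 11.6% of the coding counts in all 9 libraries, and the groups overlapped. These shares are a description and were not tested.

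Both rRNA genes rose in KD, and in OE neither passed. MT-RNR1, the small-subunit rRNA, had 335, 315 and 315 CPM in Control, 365, 700 and 849 CPM in OE, and 2680, 772 and 1067 CPM in KD. All libraries of both treated groups were above Control, OE replicate 1 only slightly. Its log2 fold change in KD was 2.23 ± 0.45 (SE) with adjusted p = 0.00326 by the edgeR quasi-likelihood test, the lowest of all mitochondrial genes, and 1.52 ± 0.29 (SE) without replicate 1. MT-RNR2, the large-subunit rRNA, had 3068, 3042 and 2941 CPM in Control, 3017, 5386 and 6543 CPM in OE, and 10710, 4856 and 5304 CPM in KD. Its log2 fold change in KD was 1.21 ± 0.37 (SE) with adjusted p = 0.0239 by the same edgeR test, and 0.76 ± 0.27 (SE) without replicate 1. MT-RNR2 did not pass in KD without Control replicate 1, 2 or 3 (edgeR adjusted p = 0.0746, 0.0772 and 0.0824). In OE, MT-RNR1 and MT-RNR2 had log2 fold changes of 0.99 ± 0.44 and 0.72 ± 0.36 (SE), which did not pass, with adjusted p = 0.273 and 0.324 in edgeR.

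Ratios within a library do not depend on how the libraries were scaled. They can depend on how each class of RNA was captured, which was not tested. Counts on the rRNA genes were 5.83%, 5.95% and 5.83% of the coding counts in Control, 5.24%, 5.49% and 4.93% in OE, and 9.71%, 6.31% and 9.07% in KD. The OE libraries were all below Control and the KD libraries all above it, although KD replicate 2 was only slightly so. The log2 differences were -0.17 and 0.49 against Control and 0.66 between KD and OE. MT-RNR1 counts were 10.9%, 10.3% and 10.7% of MT-RNR2 counts in Control, 12.1%, 13.01% and 12.97% in OE, and 25.0%, 15.9% and 20.1% in KD. The 3 groups were separate, in the order Control, OE and KD, with log2 differences of 0.25 and 0.91 against Control and 0.66 between the treated groups. With MT-ATP8, MT-ATP6, MT-ND4L and MT-ND4 left out of the denominator, the rRNA difference of KD against Control was 0.38, and the groups then overlapped (two-sided exact permutation p = 0.2). All 6 comparisons with the full denominators reached the smallest p that the two-sided exact permutation test allows, 0.1, with 0.15 after Benjamini-Hochberg adjustment over the 15 tests.

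Counts on the tRNA genes were 0.454%, 0.428% and 0.442% of the coding counts in Control, 0.349%, 0.279% and 0.279% in OE, and 0.503%, 0.368% and 0.378% in KD. OE was below Control in every library, with a log2 difference of -0.55 (two-sided exact permutation p = 0.1, adjusted 0.15). KD overlapped Control because replicate 1 was above it and the other libraries below, with a log2 difference of -0.10 (two-sided exact permutation p = 0.5, adjusted 0.577). KD was above OE in every library by 0.45 on the log2 scale (two-sided exact permutation p = 0.1, adjusted 0.15). MT-ND6 stood at 0.791%, 0.892% and 0.825% of the counts of the 12 other coding genes in Control, 0.792%, 0.493% and 0.544% in OE, and 1.02%, 0.782% and 0.695% in KD. Its ratio overlapped between all groups, with log2 differences of -0.48 in OE and -0.02 in KD against Control (two-sided exact permutation p = 0.2 and 0.9, adjusted 0.273 and 0.9) and 0.46 between the treated groups (exact p = 0.3, adjusted 0.375). With MT-ATP8, MT-ATP6, MT-ND4L and MT-ND4 left out, the OE difference was -0.50 (two-sided exact permutation p = 0.1).

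**Figure D4:**
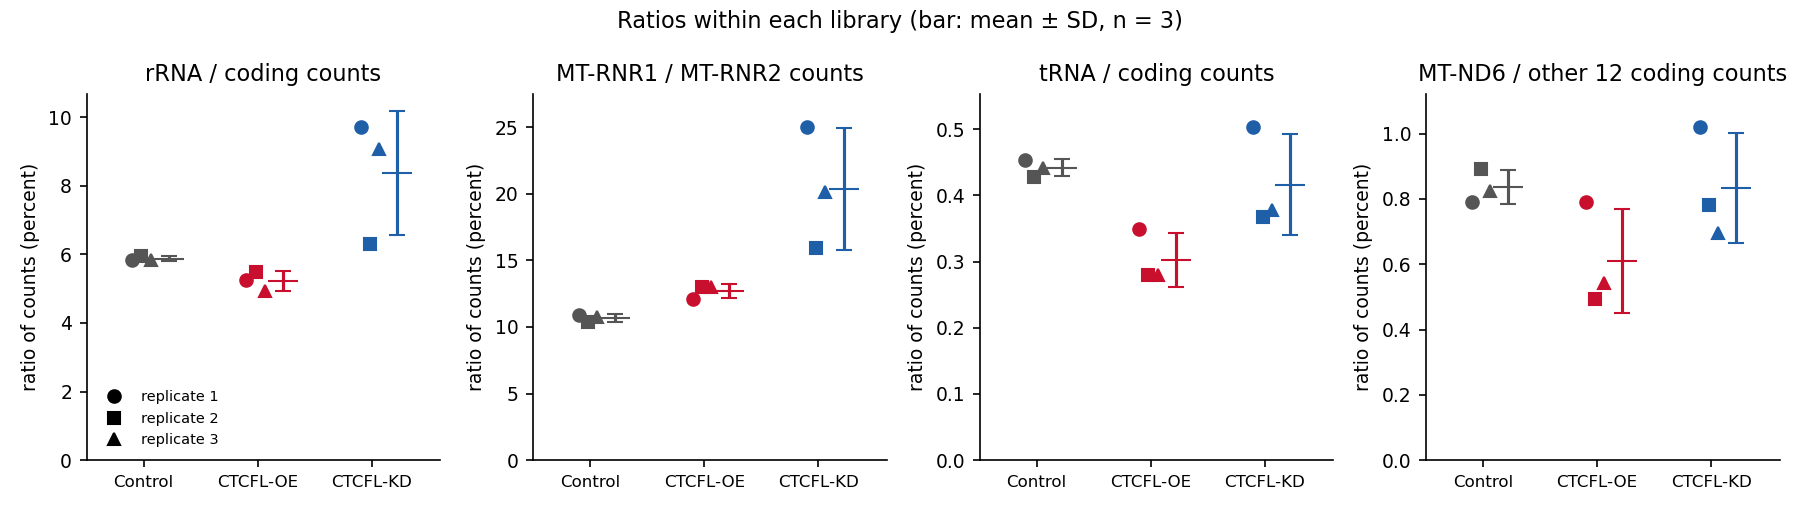
Ratios of counts within each library in percent (y axis) for the 3 libraries of each group (points, shaped by replicate) with the mean ± SD. The groups are separate for rRNA over coding and for MT-RNR1 over MT-RNR2, where Control lies between 10.3% and 10.9% and KD between 15.9% and 25.0%; MT-ND6 over the 12 other coding genes overlaps in all 3 groups.

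The tRNA genes that rose in KD were all on the minus strand. MT-TS1 had 5.71, 1.98 and 4.36 CPM in Control and 57.0, 8.92 and 8.98 CPM in KD, a log2 fold change of 2.63 ± 0.70 (SE) with adjusted p = 0.0133 by the edgeR quasi-likelihood test. Without replicate 1 it was 1.18 ± 0.38 (SE). MT-TS1 did not pass without Control replicate 2 (log2 fold change 2.28, edgeR adjusted p = 0.0542). MT-TP had 30.8, 24.7 and 25.7 CPM in Control and 134, 64.8 and 48.8 CPM in KD, a log2 fold change of 1.60 ± 0.38 (SE) with adjusted p = 0.00753 by that edgeR test. Without replicate 1 it was 1.07 ± 0.28 (SE). MT-TC had 65.1, 53.2 and 60.7 CPM in Control and 232, 88.1 and 78.0 CPM in KD, a log2 fold change of 1.15 ± 0.38 (SE) with adjusted p = 0.0324 in edgeR, and 0.48 ± 0.19 (SE) without replicate 1. MT-TC also did not pass with only the 2 groups in the fit (edgeR adjusted p = 0.0735), without OE replicate 2 (0.0511) or without Control replicate 1, 2 or 3 (0.0723, 0.106 and 0.0859). All KD libraries were above Control for these 3 genes, and replicate 1 was the highest by far. In OE, MT-TS1 had 7.43, 9.35 and 14.2 CPM, all above Control, and a log2 fold change of 1.37 ± 0.69 (SE) that did not pass, with adjusted p = 0.326 in edgeR.

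The other 16 tested tRNA genes did not pass against Control in either group. In OE their log2 fold changes ran from -0.82 for MT-TH, the histidine tRNA, to 0.98 for MT-TV. In KD they ran from -0.68 for MT-TL1 to 0.89 for MT-TK, the lysine tRNA, which had at most 12 counts in any library. MT-TN, the asparagine tRNA next to MT-TC, was above Control in every KD library, with a log2 fold change of 0.88 ± 0.33 (SE) and adjusted p = 0.0535 by the edgeR quasi-likelihood test. It passed under 6 of the alternatives, among them upper-quartile scaling, no low-count filter and DESeq2, and was 0.39 ± 0.21 (SE) without KD replicate 1. Its other neighbours in the same minus-strand cluster, MT-TA for alanine and MT-TY for tyrosine, had log2 fold changes of 0.72 ± 0.38 and -0.41 ± 0.28 (SE) in KD, and 0.24 and -0.28 without replicate 1. MT-TC and MT-TY share 1 base, and MT-TY had 54.6, 56.0 and 54.0 CPM in Control and 33.0, 57.6 and 32.9 CPM in KD, where replicates 1 and 3 were the lowest of all libraries.

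Most of the remaining tRNA genes were at a few CPM in Control, and their KD values were high in replicate 1 only. MT-TL2, the leucine tRNA for CUN codons, had 6.76, 13.1 and 6.64 CPM in Control and 30.4, 6.36 and 5.59 CPM in KD. MT-TI and MT-TQ, for isoleucine and glutamine, had log2 fold changes of 0.79 and 0.65 in KD, and -0.37 and -0.56 without replicate 1. MT-TT, MT-TG, MT-TS2 and MT-TH, for threonine, glycine, serine and histidine, had 0.83, 0.53, 0.45 and -0.07 in KD, and -0.15, -0.21, -0.45 and -0.60 without replicate 1. These 7 genes thus had KD values below 0 on the log2 scale without that library, and none passed in either fit. MT-TE, MT-TM and MT-TR, for glutamate, methionine and arginine, had log2 fold changes of 0.19, 0.07 and -0.33 in KD, and -0.31, 0.17 and -0.82 without replicate 1. In OE, MT-TT, MT-TS2, MT-TL2, MT-TG and MT-TR had log2 fold changes of -0.37, -0.48, -0.46, -0.14 and -0.11, so that 6 of the 19 tested tRNA genes lay below 0 with MT-TH, and the median of the 19 was 0.23.

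Between the treated groups, MT-TL1 and MT-TV were lower in KD than in OE, and no other mitochondrial gene passed. The median log2 fold change of KD against OE was -0.10 over the coding genes, 0.86 over the rRNA genes and 0.65 over the tested tRNA genes, against 0.04 over all genes tested. With KD replicate 1 left out these medians were -0.42, 0.28 and -0.11, so that over the tRNA genes turned direction here too. MT-TL1 had 31.1, 22.65 and 26.5 CPM in Control, 22.62, 33.3 and 60.04 CPM in OE, and 16.3, 20.0 and 13.6 CPM in KD. The KD libraries were below all 6 others, and OE replicate 3 was the highest. The log2 fold change of KD against OE was -1.21 ± 0.32 (SE) with adjusted p = 0.0174 by the edgeR quasi-likelihood test, and against Control it was -0.68 ± 0.32 (SE) with adjusted p = 0.110. Against Control it passed with total-count scaling, without the low-count filter, with only the 2 groups in the fit and without OE replicate 3 (edgeR adjusted p = 0.0447, 0.00854, 0.0364 and 0.035). MT-TV had only 11 to 17 counts in Control, 18 to 32 in OE and 5 to 12 in KD. Its log2 fold change of KD against OE was -1.38 ± 0.43 (SE) with adjusted p = 0.0367 by the edgeR quasi-likelihood test. The 2 genes were the only ones of 34 below OE in every KD library, where 19.5% of all genes tested were, and 11.5% of all genes passed as lower. Neither passed when only the KD and OE libraries were in the fit, with adjusted p = 0.0503 for MT-TL1 and 0.0837 for MT-TV in edgeR, nor without OE replicate 3, with adjusted p = 0.053 and 0.12 in edgeR. MT-TL1 also did not pass without KD replicate 3 (edgeR adjusted p = 0.052), nor MT-TV without KD replicate 2 (0.107), OE replicate 2 (0.0726), or Control replicate 2 or 3 (0.0546 and 0.0536). Calls were also gained. MT-RNR1 passed as higher without the low-count filter, KD replicate 2 or KD replicate 3 (edgeR adjusted p = 8.25e-05, 0.0225 and 0.0463) and with DESeq2 (0.0204). MT-ND4L passed as lower without the filter or OE replicate 1, with the replicate block (edgeR adjusted p = 0.00169, 0.0417 and 0.048) and with DESeq2 (0.0349). Other genes gained calls under fewer alternatives.

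MT-TL1 and MT-TV flank MT-RNR2, whose junctions with them are printed above, and MT-TL1 holds the binding site of the terminator protein MTERF1. In KD the rRNA genes on the other side of these junctions rose against Control while MT-TL1 had a log2 fold change below 0. In OE all 4 genes had log2 fold changes above 0, between 0.53 and 0.99, none of which passed.

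**Figure D5:**
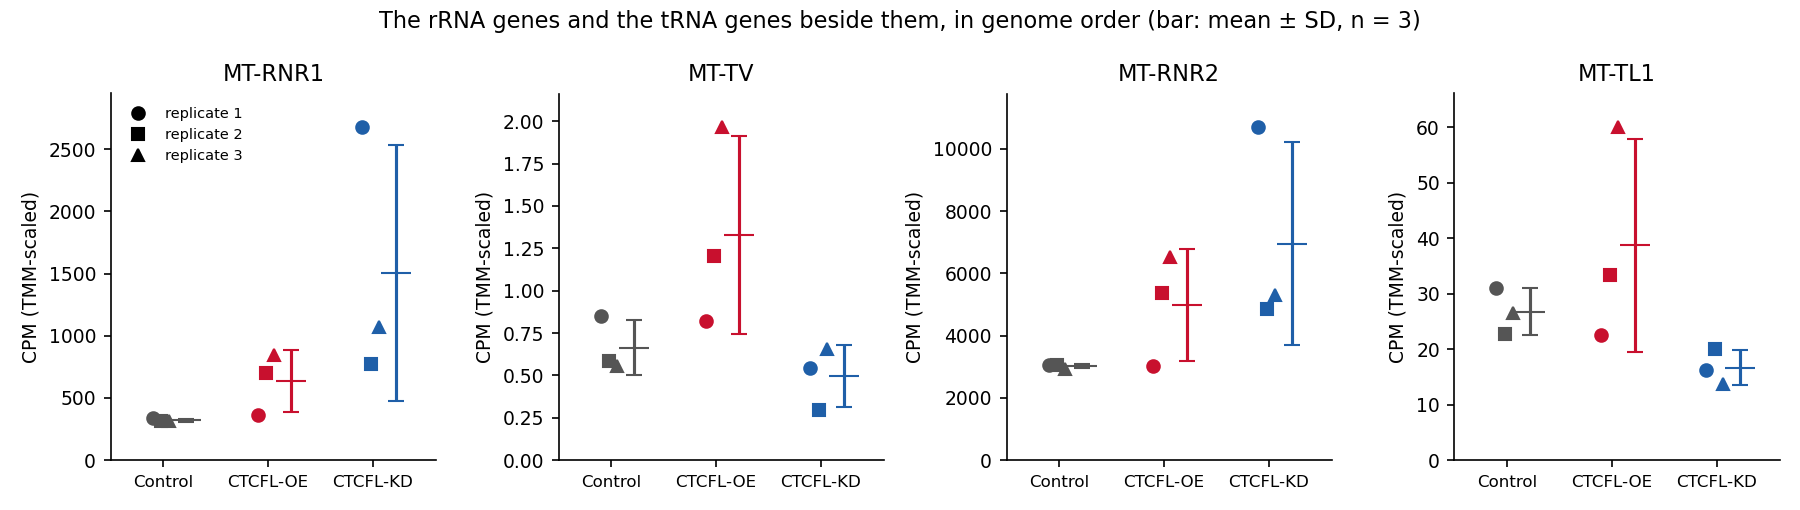
CPM after scaling (y axis) of MT-RNR1, MT-TV, MT-RNR2 and MT-TL1, which abut in this order, for the 3 libraries of each group (points, shaped by replicate) with the mean ± SD. Both rRNA genes are above Control in every KD library, while MT-TL1 at 13.6 to 20.0 CPM is below every Control and OE library.

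Part of the mitochondrial genome has near-identical copies in the nuclear genome, and reads of these genes can be assigned to either place. Of 404 annotated nuclear copies, 12 had a mean of at least 10 counts per library, and 7 of these lay in 1 block on chromosome 1 (chr1:629062-634922). Against their parent genes these 7 had an identity between 97.0% and 98.6%. The counts on all copies together came to between 8.52% and 9.87% of the counts on the 37 genes. The KD libraries, at 8.52% to 9.26%, were below the OE libraries, at 9.65% to 9.87%, and Control overlapped both. MTND2P28, the copy of MT-ND2, held the highest share of its parent's counts in Control and OE, 28.7% ± 1.02 and 28.2% ± 0.447 (SD, n = 3). In KD it held 24.9% ± 6.70 (SD, n = 3), where replicate 1 was lowest at 17.1%, and MTATP6P1 held 26.8%. The first stretch of 120 bases in which this copy differs most from MT-ND2 shows how little separates them, with the 5 bases that differ in capitals. The copy is read at chr1:630009-630128 and the parent at chrM:4839-4958, both on the plus strand of GRCh38.
MTND2P28: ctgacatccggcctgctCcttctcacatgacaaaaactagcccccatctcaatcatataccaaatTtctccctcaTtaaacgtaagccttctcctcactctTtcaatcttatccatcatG
MT-ND2: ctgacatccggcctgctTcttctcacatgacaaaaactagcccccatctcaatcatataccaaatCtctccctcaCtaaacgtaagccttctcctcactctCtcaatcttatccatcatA

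MTATP6P1 and MTCO1P12 held 26.5% and 21.4% of their parents' counts in Control, MTND1P23 and MTCO3P12 4.91% and 2.52%, and MTCO2P12 and MTATP8P1 1.13% and 0.143%. The other 5 copies lay on chromosomes 5, 17 and 18 and were MTND6P4, MTND5P11, MTND4P12, MTCO1P40 and MTCO2P2. MTND6P4, the highest of them, held 0.298% of its parent's counts in Control. In KD, MTCO2P12 and MTCO3P12 rose with log2 fold changes of 1.29 and 1.28 (adjusted p = 0.0135 and 0.00989 by the edgeR quasi-likelihood test), beside 1.29 and 1.18 for MT-CO2 and MT-CO3. MTCO1P40 and MTCO2P2 also rose, with log2 fold changes of 2.05 and 1.99 (edgeR adjusted p = 0.0193 and 0.0176), from 47 to 60 and 16 to 42 counts in Control to 70 to 246 and 44 to 116 in KD. Without KD replicate 1 MTCO2P12, MTCO3P12, MTCO1P40 and MTCO2P2 had 0.82, 0.93, 0.83 and 1.12, and all 4 passed. In OE, MTATP8P1, with 29 to 39 counts in Control and 53 to 78 in OE, was the only one of the 12 that passed (log2 fold change 1.22, adjusted p = 0.0752 in edgeR). With the counts of the copies added to their parents, the numbers of mitochondrial genes that passed were the same, 0 in OE and 9 in KD.

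The nuclear genes that transcribe, process and maintain the mitochondrial genome had 3 changes among 65 in OE and 20 in KD, of which 19 were lower. A list of 65 such genes covered transcription, RNA processing and decay, RNA modification, DNA maintenance and regulators of biogenesis, and all 65 were tested. In OE 2 rose and 1 fell, beside 1.99% and 1.16% of all genes tested. In KD 1 rose and 19 fell, beside 21.4% and 16.8% of all genes tested. The 19 comprised 3 of 9 transcription genes, 6 of 21 processing and decay genes, 2 of 13 modification genes, 3 of 14 maintenance genes and 5 of 8 biogenesis regulators. The list's median log2 fold change was -0.08 in OE and -0.23 in KD. In KD 8, 6 and 5 of the 65 passed without Control replicates 1, 2 and 3, 13 without KD replicate 2 and 29 without KD replicate 1, and 14 passed with the replicate number as a block. The shares of all genes called in these 6 fits were 26.8%, 26.7%, 25.8%, 34.6%, 49.9% and 36.9%. In OE none passed without Control replicate 1, 2 or 3 or OE replicate 2, beside 0.245%, 0.332%, 0.24% and 0.431% of all genes. With OE replicate 3 or KD replicate 3 left out 1 passed, beside 0.635% and 2.43% of all genes. Without KD replicate 2 there were 2, beside 2.41%, and without KD replicate 1 there were 14, beside 27.4% of all genes.

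PPARGC1A, a coactivator of mitochondrial biogenesis, changed in opposite directions in the treated groups. It had 7.76, 9.29 and 7.95 CPM in Control, 18.5, 15.4 and 15.6 CPM in OE, and 3.07, 2.74 and 3.56 CPM in KD. The 3 groups did not overlap. Its log2 fold change was 0.98 ± 0.18 (SE) in OE and -1.41 ± 0.19 (SE) in KD, with adjusted p = 0.0290 and 0.000295 by the edgeR quasi-likelihood test. GABPB1, a subunit of the factor also called nuclear respiratory factor 2, fell in both, by 0.59 and 0.98 on the log2 scale (edgeR adjusted p = 0.0938 and 0.000754). POLG2, the accessory subunit of the mitochondrial DNA polymerase, rose in both, by 0.76 and 0.65 on the log2 scale (edgeR adjusted p = 0.0797 and 0.0185).

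TFAM, which packages mitochondrial DNA and activates its transcription, had 123.2, 125.7 and 130.7 CPM in Control, 122.6, 80.9 and 82.4 CPM in OE, and 41.5, 83.5 and 94.8 CPM in KD. It was below Control in all treated libraries and fell in KD with a log2 fold change of -0.79 ± 0.29 (SE) and adjusted p = 0.0493 by the edgeR quasi-likelihood test, or -0.50 ± 0.17 (SE) without KD replicate 1. LRPPRC, which stabilises mitochondrial mRNAs, fell in KD by 0.62 on the log2 scale, and FASTKD3 and RNASEH1 by 0.77 and 0.70 (edgeR adjusted p = 0.0146, 0.00870 and 0.0152). POLRMT, the polymerase itself, had log2 fold changes of 0.48 ± 0.23 and 0.37 ± 0.23 (SE) in OE and KD, TFB2M of -0.28 and -0.29, SLIRP, the partner of LRPPRC, of -0.12 and 0.43, and the poly(A) polymerase MTPAP of -0.02 and -0.33. None of these 4 genes passed in either comparison. With KD replicate 1 left out, the KD values of POLRMT, TFB2M, SLIRP and MTPAP were 0.10, -0.16, -0.13 and -0.13, so that the direction of SLIRP turned.

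The nuclear-encoded partners of the mitochondrial proteins were counted in the same way. Of 81 tested nuclear genes of oxidative phosphorylation, 0 passed in OE and 21 (25.9%) rose in KD with none lower, beside 21.4% of all genes that rose and 16.8% that fell, and the median log2 fold changes were -0.10 and 0.64. In OE 1 of them had an unadjusted p under 0.05 in edgeR, beside 17.7% of all genes, and DESeq2 called 0. NDUFA3, a complex I subunit, had 51.1, 47.6 and 48.0 CPM in Control and 536, 151 and 146 CPM in KD, a log2 fold change of 2.504 ± 0.44 (SE) with adjusted p = 0.00146 in edgeR. COX6A1 of complex IV and NDUFB9 of complex I had log2 fold changes of 2.42 and 2.11 (edgeR adjusted p = 0.00233 and 0.00489). Replicate 1 was the highest KD library for all 3, and all KD libraries were above Control. Without it the log2 fold changes of NDUFA3, COX6A1 and NDUFB9 were 1.61, 1.54 and 1.19, and all 3 passed. Without replicate 1, 29 of these 81 genes passed in KD, 21 of them higher, beside 49.9% of all genes. Without replicates 2 and 3 of KD 38 and 36 passed, and without Control replicates 1, 2 and 3 there were 9, 10 and 8, while all genes gave 34.6%, 34.8%, 26.8%, 26.7% and 25.8% in these 5 fits. Of 77 tested genes of the mitochondrial ribosome, 0 passed in OE, where 7 had an unadjusted p under 0.05 in edgeR and DESeq2 called 2. In KD 3 rose (MRPS6, MRPL12 and MRPL24, by 1.124, 1.08 and 0.96 on the log2 scale) and 8 fell, beside 21.4% and 16.8% of all genes. These 3 genes had log2 fold changes of 0.42, 0.32 and 0.30 without KD replicate 1, and passed. Without KD replicate 1 there were 45 of the 77 that passed, 4 of them higher, beside 49.9% of all genes, and without 1 Control library 3 or 4 passed, none of them higher, while 7 passed without OE replicate 2. In OE, 9 genes of oxidative phosphorylation and 19 of the mitochondrial ribosome passed without KD replicate 1, and 3 and 8 without OE replicate 1, beside 27.4% and 15.1% of all genes.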

How the data were processed

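The deposited values are counts of reads per gene, without normalization. According to the methods of the study, the authors used Trimmomatic for trimming, STAR for alignment to GRCh38 and featureCounts for counting, from libraries made with a stranded mRNA kit; the submitters' processing notes also list kallisto. Counts in the 9 library files equalled those of the matrix. Symbols, positions and lengths came from GENCODE release 44, which named 60419 of the 60660 identifiers, and sequences from the GRCh38 reference, whose chromosome M has 16569 bases.

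The analysis used edgeR 4.0.16 under R 4.3.3. Genes were kept by filterByExpr, libraries scaled by TMM, and 1 quasi-likelihood model (glmQLFit, robust) was fitted to all 9 libraries with condition as the only factor. P-values were Benjamini-Hochberg adjusted over the 17794 genes tested, with thresholds of 0.1 for OE and 0.05 for the other comparisons, and a DEG also had a log2 fold change beyond 1. CPM are counts per 1000000 of the TMM-scaled library size, and each SE was derived from the F statistic of its log2 fold change. Shares and ratios were tested per library with exact permutation tests in scipy 1.17.1. Figures were drawn with matplotlib 3.10.9. The fit was tested on simulated data. Alternatives were RLE, upper-quartile and total-count scaling, scaling on nuclear genes only, all genes kept, only genes with 10 or more counts throughout, non-robust estimation, a fit of the 2 compared groups alone, DESeq2 1.42.0, nuclear copies added to their parents, a replicate block, and leaving out 1 library at a time. For shares and ratios they included other denominators, among them the coding genes without MT-ATP8, MT-ATP6, MT-ND4L and MT-ND4.

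All 37 genes and the nuclear copies with a mean of at least 10 counts are accounted for. Named from the nuclear lists are POLRMT, TFAM, TFB2M, LRPPRC, SLIRP, MTPAP and PPARGC1A and, in each comparison with Control, the 5 largest changes of the machinery and 3 each of the other lists, among genes that passed with all treated libraries beyond all Control libraries. The members and lists were chosen with earlier results of these data known. Same-numbered KD and Control libraries deviated together from the means of their groups, with correlations of 0.18, 0.115 and 0.113 across genes. Those of OE and Control correlated by -0.0108, 0.154 and -0.0482. The KD RNA came from an earlier study, so the replicate numbers have no stated pairing with Control. The model above and the exact tests used no pairing, and the replicate block was an alternative only. The labels call the replicates biological, and p-values include the spread between cultures.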

Additional observations from a re-analysis of the deposited data

How the results depend on the processing

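Over the 20 alternatives to the fit, no mitochondrial gene that passed changed direction. Counted over single genes and alternatives, 29 calls were lost and 94 gained, while 1902 values kept their side of the threshold. In OE against Control, 13 mitochondrial genes passed without a low-count filter, 12 with only the 2 groups compared and 8 with DESeq2, against 0, beside 4.01%, 20.2% and 7.62% of all genes. Of the machinery, where 3 passed, 1 did with total-count scaling, 1 with the replicate block and 10 with only the 2 groups compared. Of all genes, 2.17%, 2.39% and 20.2% passed in these fits. Of the mitochondrial ribosome, 9 passed with only the 2 groups and 2 with DESeq2, and of oxidative phosphorylation 4 with only the 2 groups and 1 without the filter, against 0 for each. In KD against Control, oxidative phosphorylation gave 38 without the filter and 10 with only the 2 groups, against 21. The shares of all genes called were 21.2% and 36.8%, against 38.2%. In KD against OE, 13 mitochondrial genes passed without the filter, 4 with DESeq2, 1 with at least 10 counts in every library and 0 with only the 2 groups, against 2. The shares of all genes called were 16.1%, 23.6%, 25.4% and 15.5% in these fits. The cause of these differences was not tested.

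With each library left out in turn, the mitochondrial genes that passed ranged from 0 to 15 in OE, from 3 to 11 in KD and from 0 to 4 between the treated groups. The machinery ranged from 0 to 14 in OE and from 5 to 29 in KD, the mitochondrial ribosome from 0 to 19 and from 3 to 45, and oxidative phosphorylation from 0 to 9 and from 8 to 38. Over the same fits the share of all genes called ran from 0.24% to 27.4% in OE and from 25.8% to 49.9% in KD. Between the treated groups it ran from 17.3% to 39.7%. The highest counts in OE came without KD replicate 1. The median log2 fold change of the coding genes ranged from 0.58 to 1.19 in OE, from 0.43 to 0.91 in KD and from -0.42 to 0.25 between the treated groups. The log2 difference of the mitochondrial share between the treated groups ranged from -0.50 to 0.0029 and turned positive without OE replicate 3. That of the MT-ND6 ratio in KD against Control ranged from -0.18 to 0.098, and it was 0.013, 0.098 and 0.025 without KD replicate 2, KD replicate 3 and Control replicate 2. With the replicate block, 9 mitochondrial genes passed in KD, the same genes as without it, and 3 between the treated groups. The shares of all genes called were 36.9% and 25.6%. Between the treated groups MT-ND4L was added with an adjusted p of 0.0480 in edgeR, and the block changed no other call of a mitochondrial gene. Total-count scaling moved the median of all genes by -0.17 in KD against Control and by -0.14 against OE. Several tRNA genes, among them MT-TV, MT-TK and the 3 under the filter, had few counts, and how small a difference could be detected at such counts was not tested.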
